A study of Mus musculus with 2 samples.

Results

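The genes described here make, carry and read retinoic acid. They are 9 genes named by symbol: the aldehyde dehydrogenases Aldh1a1 and Aldh1a2, the binding protein gene Crabp1, the receptor genes Rara, Rarb, Rarg, Rxra and Rxrb, and Stra8, a gene switched on by retinoic acid in germ cells. All 9 were read on the array, by 11 probe sets that carry a single gene symbol, out of 12393 genes in all. In the GRCm38.p6 gene table Aldh1a1 lies on chromosome 19, Aldh1a2 and Crabp1 on chromosome 9, Rara on 11, Rarb on 14, Rarg on 15, Rxra on 2, Rxrb on 17 and Stra8 on 6. Whole testes of 17 day old mice on a mixed 129SV and C57BL background were studied, from wild type animals and from UBR2-/- animals, which lack the ubiquitin ligase UBR2. For each genotype the labels name 2 testes from different mice of a litter and 1 array (n = 1), and the sources used here do not say whether the RNA was pooled or how the Ubr2 allele was made. The question was how messenger RNA levels in the juvenile testis differ without UBR2.

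Retinoic acid is made from vitamin A in consecutive oxidations: retinol dehydrogenases turn retinol into retinal, and enzymes of the ALDH1A family turn retinal into retinoic acid. Cellular binding proteins carry it, CYP26 enzymes break it down, and in the nucleus it binds RAR proteins, which sit on DNA as pairs with RXR proteins. In the testis retinoic acid drives spermatogonia to differentiate and turns on Stra8, whose product is needed to enter meiosis.

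RAR and RXR pairs recognise repeats of a hexamer. The consensus AGGTCA was searched along with a close variant of it, GGGTCA, and the further variant AGTTCA was included as well as the last form, GGTTCA. All were searched on both strands, overlaps allowed, in the 250 bases before each annotated start, in RefSeq promoter sequences of build GRCm38.p6. The promoters of Rarb, Stra8 and Aldh1a1 are shown because Rarb holds the repeat, Stra8 is the retinoic acid target among the members, and Aldh1a1 is the synthesis enzyme whose ratio moved by more than its probe set error under 3 scalings. They run 5′ to 3′ on the gene's strand and end at the base before the start, with hexamers of either strand in capitals. The windows are chr14:16575477-16575726 (minus strand) for Rarb, chr6:34920698-34920947 (plus strand) for Stra8 and chr19:20601718-20601967 (plus strand) for the second listed start of Aldh1a1.
Rarb: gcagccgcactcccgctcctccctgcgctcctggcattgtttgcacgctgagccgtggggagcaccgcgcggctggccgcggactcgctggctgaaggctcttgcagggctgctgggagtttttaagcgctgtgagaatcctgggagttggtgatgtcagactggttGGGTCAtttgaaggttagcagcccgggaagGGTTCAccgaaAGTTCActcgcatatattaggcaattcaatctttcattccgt
Stra8: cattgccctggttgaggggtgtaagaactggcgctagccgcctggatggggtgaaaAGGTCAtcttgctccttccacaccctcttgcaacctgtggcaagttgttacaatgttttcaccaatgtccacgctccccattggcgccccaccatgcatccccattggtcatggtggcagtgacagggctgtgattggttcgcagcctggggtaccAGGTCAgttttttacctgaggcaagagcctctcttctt
Aldh1a1: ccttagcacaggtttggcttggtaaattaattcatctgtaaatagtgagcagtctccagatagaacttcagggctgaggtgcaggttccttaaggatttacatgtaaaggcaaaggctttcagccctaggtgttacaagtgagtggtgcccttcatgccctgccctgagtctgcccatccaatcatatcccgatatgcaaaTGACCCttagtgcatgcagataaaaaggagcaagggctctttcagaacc

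The Rarb window holds a direct repeat with 5 bases between its hexamers, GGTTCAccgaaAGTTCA, at chr14:16575513-16575529, from base -53 to base -37 before the start. This is the textbook retinoic acid response element of that gene. Of 32851 promoters of this length, 0.0883% hold a direct repeat of these hexamers at a spacing of 5, and no other member promoter holds one at any spacing from 0 to 5. Stra8 has 2 separate AGGTCA hexamers, at bases -194 and -38, and Aldh1a1 has 1 on the opposite strand at base -49. At least 1 hexamer was found in 6 of the 16 listed member promoters (37.5%), against 38.6% of all promoters. No hexamer was found in the windows of Aldh1a2, Crabp1 and Rxrb. A match describes letters only, and hexamers were about as frequent among the member promoters as elsewhere.

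On the arrays, signals are the deposited probe set intensities, and ratios are UBR2-/- over wild type. Each array has a floor, its 40th percentile of signal, at 24.4 for wild type and 24.7 for UBR2-/-. Values below it were raised to it, and a gene was compared where its mean signal reached 24.55. Each gene is given by its brightest probe set. A single array stands for each genotype, so there is no test between samples, no p-value is given, and each ratio describes these arrays. Reading error was estimated where several probe sets read a gene, as a robust SD of a single log2 ratio from their median absolute disagreement. This SD came to 0.24 among dim probe sets, 0.19 at intermediate brightness and 0.13 among bright ones. Such probe sets read the same RNA, so this SD leaves out the error between arrays and between animals. Large disagreements count little in it: the probe sets of Kit gave -0.075 and 0.97. Ubr2 itself read 57.2 in wild type and 14.3 in UBR2-/-, at least 2.32-fold lower by its 1 probe set.

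**Figure D1:**
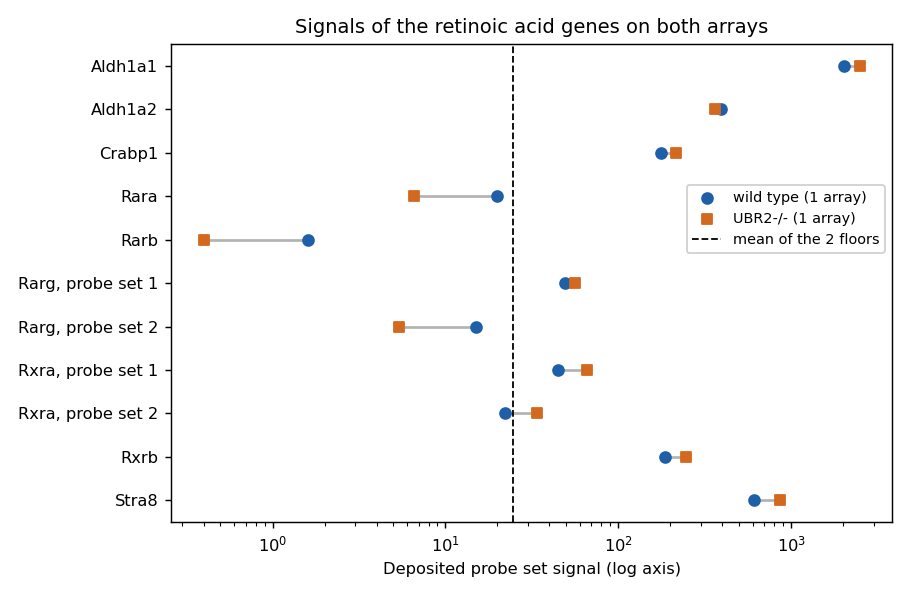
Deposited signal (log axis) of each of the 11 member probe sets on the wild type array (circles) and the UBR2-/- array (squares), with the mean of both floors as a dashed line. Pairs lie close together for all members above the floor, and Rara, Rarb and the second probe set of Rarg lie below it on both arrays.

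Of the 9 members, 7 were bright enough to be compared. No compared member was 2-fold or even 1.5-fold different between the arrays. Among all 8091 compared genes, 3.52% were at least 2-fold lower and 0.346% at least 2-fold higher on the UBR2-/- array, and 7.71% and 4.25% were at least 1.5-fold lower and higher. The members had a median log2 ratio of 0.30, against 0.075 for all compared genes, and 6 of 7 lay above that overall median. The size and the sign of this shift depend on scaling: the 42 probe sets for control transcripts of bacterial and phage origin had their median at 0.35, and scaling on them moved the members' median to -0.056 and that of all compared genes to -0.28. The members' median stood 0.22 above that of all genes on both scales. Control transcript scaling divides all UBR2-/- signals by a common factor, so it could hardly change this distance.

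Synthesis is carried by Aldh1a1 and Aldh1a2, which gave ratios on opposite sides of 0 on the deposited scale. Aldh1a1, which in the testis is known mainly from Sertoli and Leydig cells, read 2029.1 in wild type and 2492.4 in UBR2-/-, a log2 ratio of 0.30 or 1.23-fold. The UBR2-/- array was the higher of the pair on the deposited scale, but quantile normalization and loess brought the ratio to 0.13 and control transcript scaling turned it to -0.056. Aldh1a2, which is known from late spermatocytes and spermatids, had signals of 395.7 and 361.9, a log2 ratio of -0.13 or 1.09-fold lower. It was the only compared member that read lower on the UBR2-/- array, and it stayed below 0 under all 9 alternatives, from -0.48 to -0.12. As Aldh1a2 is bright and has 1 probe set, the other floors and the probe set choices among these could not change its ratio. The ratio of Aldh1a2 on the deposited scale is no larger than its probe set SD of 0.13. On that scale the ratios of both enzymes differed by 0.43, against an SD of 0.19 for such a difference from probe set error alone. They lay closer with quantile normalization and loess, where Aldh1a2 had -0.12 and -0.17 beside 0.13 for Aldh1a1. Aldh1a7, a close relative of Aldh1a1 by sequence, had 293.3 and 255.9, a log2 ratio of -0.20. On the deposited scale Aldh1a1 and Aldh1a7 thus lay on opposite sides of 0. Aldh1a7 had -0.18 with quantile normalization and -0.24 with loess. Control transcript scaling brought it to -0.55, which puts both genes below 0. Whether a probe set of either gene also binds the other's RNA was not tested. Aldh1a3, the other retinal dehydrogenase of the family, read dimly at 49.4 and 39.3, a log2 ratio of -0.33.

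Binding of retinoic acid in the cytoplasm is represented by Crabp1, which is known from spermatogonia. It had signals of 176 and 214.7, a log2 ratio of 0.29 or 1.22-fold, and control transcript scaling turned it to -0.066. The UBR2-/- array was slightly higher on the deposited scale. Its relative Crabp2 was below the floor on both arrays, at 1.6 and 12.6.

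The RAR genes were dim or not detected above the floor. Rara, a receptor of Sertoli cells and germ cells, had 19.9 in wild type and 6.6 in UBR2-/-. Rarb, the gene with the response element shown above, had 1.6 and 0.4. Both lie below the floor on both arrays, so no ratio is given, and low signals of this kind do not show that the RNA was absent. Rarg, the receptor of spermatogonia, had 49.3 and 56.2 by its brighter probe set, a log2 ratio of 0.19 that control transcript scaling turned to -0.16. Its other probe set read 15 and 5.4, below the floor on both arrays. With the floor lowered to the 25th percentile, 8.5 on the UBR2-/- array, Rara was at least 2.34-fold lower on that array, so its comparison depends on where the floor is set.

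Of the RXR partners, Rxra and Rxrb were above the floor by their brightest probe sets and higher on the UBR2-/- array. Rxra had signals of 44.9 and 65.8, a log2 ratio of 0.55 or 1.47-fold, above 94.7% of compared genes. Its second probe set read 22 and 34.1, below the wild type floor, which makes it at least 1.40-fold higher. Both probe sets of Rxra thus leaned the same way, but both are dim, where the probe set SD is 0.24. Rxrb had 186 and 245.7, a log2 ratio of 0.40 or 1.32-fold, above 87.2% of compared genes. Rxra and Rxrb stayed above 0 in every scaling tried, down to 0.20 and 0.049 with control transcript scaling. Rxrg was below the floor at 3.5 and 1.1.

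Stra8, the retinoic acid target, was the brightly read member with the highest ratio. It read 612.7 in wild type and 868.4 in UBR2-/-, a log2 ratio of 0.50 or 1.42-fold, above 92.9% of compared genes. The ratio was 0.53 with quantile normalization, 0.46 with loess and 0.15 with control transcript scaling, and was above 0 in all 9 alternatives. The other floors and the probe set choices among these could not change the ratio of a bright gene with 1 probe set. A probe set SD of 0.13 applies at this brightness. The distance from the all-gene median was larger than this SD, while the error between animals is unknown. Stra8 was read by 1 probe set, so no second reading exists. Of the 8 other compared genes listed as responding to retinoic acid, 6 lay above the overall median, up to 0.43, and Rec8 and Kit lay below it. Dmrt1, among the 6, also holds back Stra8 in spermatogonia. Dmrt1 had 0.26, which differs from Stra8 by 0.24 against an SD of 0.19 from probe set error alone. Rec8, a meiotic cohesin, had 81.8 and 77.3, a log2 ratio of -0.082, and Kit, the receptor of differentiating spermatogonia, had -0.075 by its brightest and 0.97 by its other, dimmer probe set. The difference between Stra8 and Rec8 was 0.58, against an SD of 0.27 from probe set error alone.

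In order of log2 ratio the compared members ran Rxra, Stra8, Rxrb, Aldh1a1, Crabp1, Rarg and Aldh1a2. Every neighbouring pair from Rxra to Rarg lay closer than its probe set error, with gaps of 0.0099 to 0.10. The step of 0.32 from Rarg to Aldh1a2 was slightly larger than its SD of 0.27.

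The other genes of the pathway were described from a list of 68, of which 56 were read and 35 compared. Of the 35, 1 was at least 2-fold higher (Cyp2s1), 0 were 2-fold lower, and 34 lay between, beside 0.346% and 3.52% of all compared genes. Their median was 0.25, with 24 genes above the overall median and 11 below it, and it moved to -0.10 with control transcript scaling. At 1.5-fold, Cyp2s1 was higher and Rdh11 lower.

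**Figure D2:**
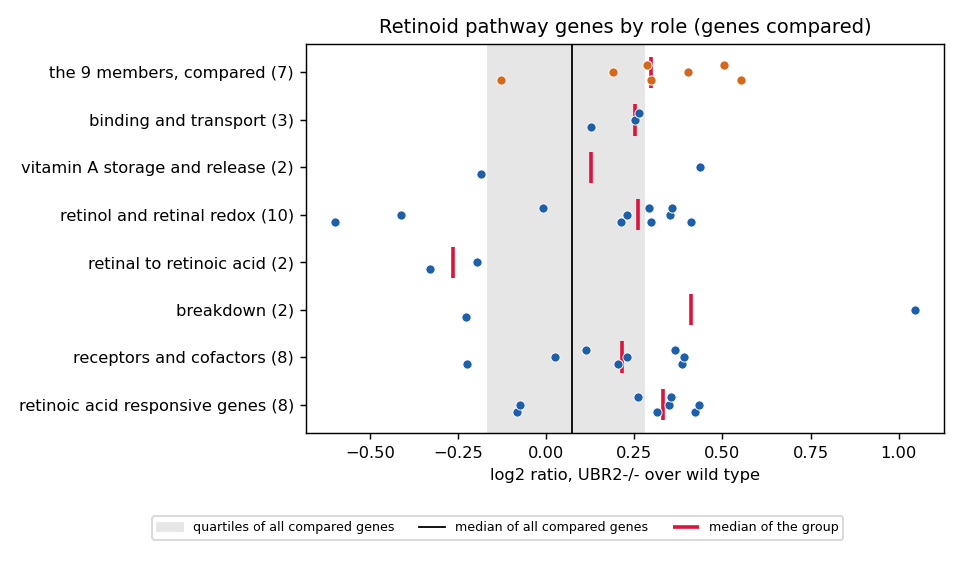
Log2 ratio (UBR2-/- over wild type) of each compared gene by role, with the number of genes in brackets, the group median as a red bar, and the median and quartiles of all 8091 compared genes as a line and a grey band. Most groups centre between 0.1 and 0.5, Cyp2s1 stands apart at 1.05, and Rdh11 is lowest at -0.60.

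The compared genes of transport and storage had log2 ratios from -0.18 to 0.44. Rbp4, which carries retinol in blood, had 163.7 and 178.7, a log2 ratio of 0.13. Fabp5, which can bind retinoic acid, had 593.6 and 706.9, a log2 ratio of 0.25 that turned to -0.10 with control transcript scaling. The other probe set of Fabp5 gave 0.082. Dgat1, which can esterify retinol, had 334.6 and 294.5, at -0.18. Lpl, a lipase of lipoproteins, had 121.1 and 163.9, at 0.44.

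Of the 10 compared genes of retinol and retinal metabolism, 7 lay above the overall median and 3 below it, with a median of 0.26. Rdh11, a retinal reductase, had 245.4 and 162.2 and was 1.51-fold lower, and its probe sets gave log2 ratios of -0.60 and -0.73, on the same side of 0. It stayed below 0 under all 9 alternatives, from -0.95 to -0.57, though the other floors could not change the ratio of so bright a gene. Rdh14, its relative, had 267.7 and 201.2, a log2 ratio of -0.41. Rdh10, the dehydrogenase that makes most retinal in the embryo, had 171.5 and 210.7, at 0.30, and differed from Rdh11 by 0.89, against an SD of 0.27 from probe set error alone. Adh5 had 828.4 and 970.7, at 0.23, and Akr1b8 had 1071.7 and 1366.5, at 0.35; both turned to the other side of 0 with control transcript scaling.

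Of the breakdown enzymes, Cyp26a1, the main retinoic acid hydroxylase in many tissues and a classic target of the receptors, had 64.7 and 55.3, a log2 ratio of -0.23. Its relatives Cyp26b1 and Cyp26c1 were listed but not named on the array, so breakdown was read only in part. Cyp2s1, a cytochrome that can oxidise retinoic acid, had 49.5 and 102.3, a log2 ratio of 1.05 or 2.07-fold, by 1 probe set. It is the outermost pathway gene, and its place past 2-fold was lost with loess, at 0.96, and with control transcript scaling, at 0.70.

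The 8 compared receptors and cofactors had a median of 0.22 and ran from -0.22 to 0.39, with 6 above the overall median. Ncoa1, a coactivator, had 223.5 and 241.9, at 0.11, and Med1 had 266.4 and 271.2, at 0.026, with its probe sets from -0.15 to 0.25. The 8 compared genes listed as responding to retinoic acid, beside Stra8, had a median of 0.33 and ran from -0.082 to 0.43. Of these, 6 of 8 lay above the overall median. Tgm2, a transglutaminase induced by retinoic acid, had 320.2 and 398.2, at 0.31, with its probe sets above the floor from 0.060 to 0.37. Dmrt1, a regulator that holds back Stra8 in spermatogonia, had 833.7 and 999, at 0.26. Control transcript scaling turned Tgm2 and Dmrt1 to the other side of 0, as it did Ncoa1, Med1 and Rbp4.

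Whole testes hold many cell types, and on these arrays fewer cells of a type and less RNA per cell cannot be told apart. Marker lists therefore stand beside the members. They share genes with the retinoid list: among others, Dmrt1 is also a Sertoli cell marker, Kit a spermatogonia marker and Rec8 an early meiotic marker. All 12 pachytene and later spermatocyte markers were compared and lay below the overall median, 9 of them at least 2-fold lower, with a median of -1.51 and a signal summing to 8658 on the wild type array against 2387 on the other. Ldhc, the germ cell lactate dehydrogenase, had -3.11 and Hspa2, a chaperone of spermatocytes, had -0.90. Ldhc alone gave 3709.3 and 430.5 of those sums. Aldh1a2, a gene of the same late cells by background knowledge, was at -0.13 on these arrays. The 12 markers ran from -3.11 to -0.88.

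Of the 13 Sertoli cell markers read, 11 lay above the overall median, and the list had a median of 0.34 and sums of 10279.4 and 13193.6. They ran from -1.23 to 0.58, and 1 was at least 2-fold lower, Amh, the hormone of immature Sertoli cells. Clu had 0.45 and Inha 0.21, and Clu alone gave 5186.1 and 7075.9 of the sums. Aldh1a1 at 0.30 lay within the range of the list. Most genes do: its lowest marker lay above 2.50% of all compared genes and its highest above 95.7%. The 10 compared spermatogonia markers had a median of 0.15, with 5 on each side of the overall median and sums over the 11 markers read of 2400.3 and 2173.6. Uchl1 had 0.32 and Id4 -1.07, and Stra8, Rarg and Crabp1 lay within the range of that list, -1.07 to 0.53. Most genes do: its lowest marker lay above 3.13% of all compared genes and its highest above 94.0%. The 12 markers of early meiotic prophase had a median of -0.073 and sums of 11521.3 and 10971.9, and 11 of them lay below the overall median. Sycp3 had 0.025, Sycp1 -0.11 and Spo11, which makes meiotic DNA breaks, was the 1 at least 2-fold lower, at -1.27. Stra8, which acts at the entry into that phase, lay above every one of these 12, whose highest value was 0.38. That highest marker lay above 85.5% of all compared genes, so other genes also exceed this list. Its step to Stra8 at 0.50 is small beside a probe set SD of 0.13 for each.

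The 7 peritubular myoid markers had a median of 0.50 and sums of 2564.4 and 3684.9, with Acta2 at 0.49 and Mylk at 0.57. The 6 Leydig cell markers had a median of 0.21 and sums of 1136.9 and 1199.9, with Hsd3b1 at 0.29. They ran from -0.59 for Cyp11a1 to 0.80 for Star, both genes of steroid synthesis. The probe sets of Star ran from 0.11 to 0.84. The 7 compared macrophage and leukocyte markers had a median of -0.059 and sums over the 8 markers read of 770.9 and 724.4, with Csf1r at -0.017 and Lyz2 at -0.27. The 6 endothelial markers had a median of 0.14 and sums of 195.7 and 250.9, with Cdh5 at 0.41 and Cldn5 at 0.94. Of the spermatid markers 8 of 9 were below the floor rule and Prm1 had 1.41, with its probe sets from 0.35 to 1.55. Both erythrocyte markers read were below the floor rule. No marker read was at exactly 0. The part of these cell types in the members' ratios was not tested.

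**Figure D3:**
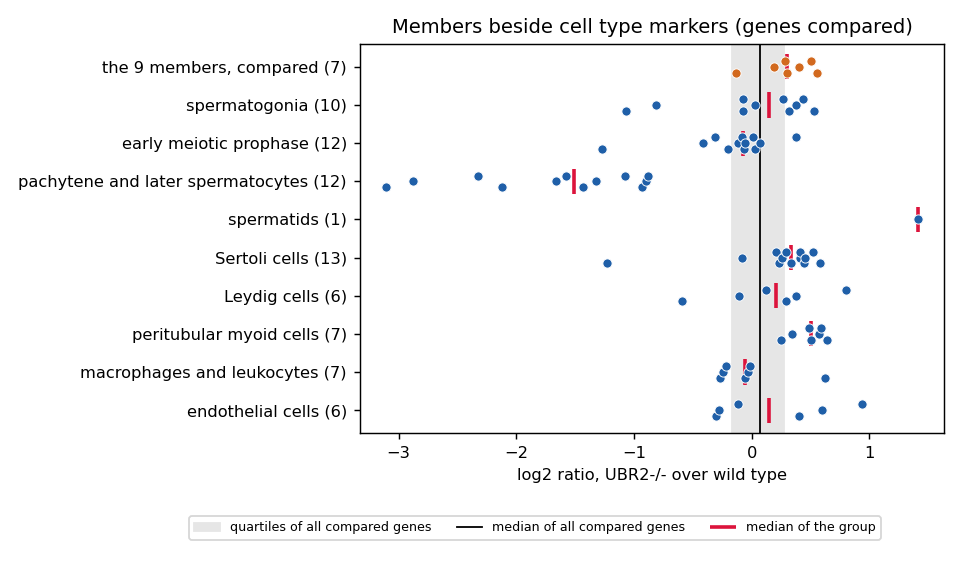
Log2 ratio (UBR2-/- over wild type) of the 7 compared members and of the compared markers of each cell type, drawn as in the plot by role, with genes below 1 array's floor placed at that floor. The members lie between -0.13 and 0.55, above all 12 pachytene markers, whose median is -1.51, and within or across the range of every other list except the single spermatid marker.

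**Figure D4:**
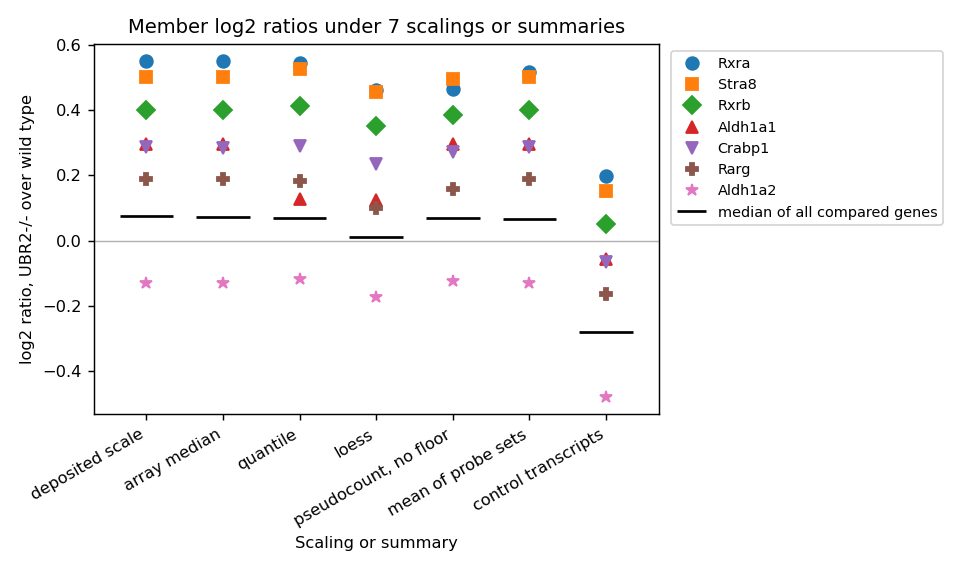
Log2 ratio of each compared member under the deposited scale and 6 other scalings or summaries, with the median of all compared genes as a bar. Aldh1a1 moves closer to that bar with quantile normalization and loess, and control transcript scaling lowers all members by 0.35 and takes Aldh1a1, Crabp1 and Rarg below 0.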

How the data were processed

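The authors deposited linear probe set intensity values from Affymetrix mouse genome 430A 2.0 arrays, made with MAS5 per the submitters' processing notes, with no version, setting or detection call known here. Each array had a 2% trimmed mean of 150.04, so the deposited scaling was kept. Of 22626 non-control probe sets, 20380 carried a single symbol in GEO's platform annotation (names can be old) and were used; 20351 matched the GRCm38.p6 gene table by Entrez identifier. Floors, brightest probe sets and log2 ratios were computed in Python 3.11.15 with pandas 2.3.3 and numpy 2.4.6, loess in statsmodels 0.14.6. The number of arrays limits the precision. Tested on simulated data of this comparison, UBR2-/- over wild type (8057 genes, 100 changed each way by a log2 of 1.5), 100% of changed genes and 0% of unchanged genes passed 2-fold, which checks the arithmetic at these settings and says nothing of false calls in the real data.

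The members and lists were chosen with earlier results of these data known. Named are all members, pathway genes at least 1.5-fold off, the 2 brightest compared genes of each role and marker list, and Ubr2. Crabp2, Rxrg, Rec8, Kit, Rdh10, Rdh14, Bco2, Amh, Spo11 and Star fall outside this rule and were named after their values were seen, as were the pairs of genes whose differences are given. Alternatives were 4 other scalings (array median, quantile, loess with span 0.3, control transcripts), floors at the 25th and 60th percentiles, a pseudocount of 10 with no floor, the mean over probe sets, probe sets without _s_at, _x_at or _a_at names, and thresholds of 1.5-fold and 3-fold.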

Additional observations from a re-analysis of the deposited data

How the results depend on the processing

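No paired analysis was possible because each genotype has 1 array, and for the same reason no replicate could be left out. No compared member passed 2-fold under any scaling; with the floor at the 25th percentile, 1 member was at least 2-fold lower, Rara, which is below the floor otherwise. The members' median of 0.30 moved to -0.056 with control transcript scaling and to 0.40 without _s_at, _x_at and _a_at probe sets, which leaves 5 members. The median of the other pathway genes moved from 0.25 to -0.10, and that of all genes from 0.075 to -0.28, with control transcript scaling. The count of other pathway genes at least 2-fold higher went from 1 to 0 with loess, control transcript scaling, the 60th percentile floor, the pseudocount and a 3-fold threshold; that of lower ones went from 0 to 1 with the 25th percentile floor (Bco2, at -1.15) and at 1.5-fold (Rdh11). Over all genes, the 28 higher became 17 with loess, 7 with control transcripts, 132 and 8 with the lower and higher floor, 17 with the pseudocount, and 344 and 3 at 1.5-fold and 3-fold. The 285 lower became 528 with control transcripts, 152 with the higher floor, and 624 and 121 at 1.5-fold and 3-fold. Medians are given where they moved by 0.1 or more in log2. Counts under other thresholds change by construction. So do those under the higher floor, which tests fewer genes, and the lower floor, which tests more and raises fewer signals. Control transcript scaling shifts every log2 ratio alike, so its counts change by construction too. For the rest the cause was not tested. Of the 7 compared members, 3 changed sign under any alternative, each with control transcript scaling alone. Signals near or below the floor limit Rara, Rarb, Rarg and Rxra.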
